A study of Mus musculus with 29 samples.

Results

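Ribosomal protein genes encode the proteins that, with ribosomal RNA, form the small and the large subunit of the cytosolic ribosome. The genes described here were chosen by symbol: names of the form Rpl or Rps with a number and, where present, the ending a, x, l or l1, together with Rplp0, Rplp1, Rplp2 and Rpsa, provided that every library held at least 10 counts. Of 55292 gene names in the count tables, 86 had such a symbol and 81 also met the count minimum, 32 of the small and 49 of the large subunit. The label fits the list: 76 of the 80 core proteins of the mammalian ribosome were among the 81. The other 5 were Rpl3l, Rpl7l1, Rpl22l1, Rps27l and Rps4l, which are paralogs or like-named copies. Core genes such as Rps3a1, Fau and Rack1 fell outside because their symbols have another form. Just inside the count minimum lay Rpl24, with 22 to 457 counts per library, and Rps10, with 31 to 316. Just outside lay Rpl6l with 6 to 36 counts, Rpl32l with 0 to 37 and Rpl39l with 0 to 22, while Rpl10l and Rps12l1 had 0 counts in all libraries.

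Polyadenylated RNA of whole atria of male mice was sequenced in 29 libraries. All mice started their diet at 5 weeks of age and stayed on it for 4 weeks. In the diet experiment, control mice (Ctrl) and mice carrying a NaV1.5 transgene received regular diet (RD) or high-fat diet (HFD), which gave 4 libraries each of Ctrl_RD, NaV1.5_RD and Ctrl_HFD, and 5 of NaV1.5_HFD. NaV1.5 is the pore-forming subunit of the cardiac sodium channel. In the second experiment every mouse carried the NaV1.5 transgene and ate the high-fat diet, and received vehicle in 5 libraries and nicotinamide riboside (NR), from which cells make NAD, in the other 7. The sources used here name neither the promoter of the transgene nor the strain. Whether libraries of a group stand for separate mice is not in the labels, so a p-value here reflects spread among libraries that may be technical.

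The libraries held between 13189995 and 33061018 counts on genes. Markers of atrial cardiomyocytes took 2.25 to 5.46% of the counts, and markers of ventricular cardiomyocytes at most 0.0972%. The labels put all diet libraries in batch 1 except Ctrl_HFD replicate 4 (batch 2), all vehicle libraries in batch 3, NR replicates 1 to 5 in batch 2 and NR replicates 6 and 7 in batch 3. The batch of Ctrl_HFD_4 is taken from its label, although its counts on ribosomal protein pseudogenes (1.65% of those on the 81 genes) lay with batch 1 and not with the other batch 2 libraries (0.318 to 0.465%). An added record named flag held 0 counts in every library, and the sources used here do not say what it marks. A library is named below by its group and replicate, as in NaV1.5_RD_4. Of the libraries, NaV1.5_RD_4, Ctrl_RD_4 and the NR libraries of batch 2 stood apart on the ribosomal protein genes. Results for the set that rest on NaV1.5_RD_4 or on the NR libraries of batch 2 are given with and without them. Ctrl_RD_4 alone was left out only among the ranges for leaving out 1 library at a time and for the ratio of Rpl3l to Rpl3.

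Ribosomal protein mRNAs are among the most abundant in any cell, and their translation is adjusted as a set. Most begin with a C followed by a run of pyrimidines at the very start of the transcript, the terminal oligopyrimidine (TOP) element, through which the kinase mTOR controls their loading onto ribosomes. In the heart, growth and energy supply act on ribosome production through the same pathway. RPL3L, the product of Rpl3l, is a form of the large subunit protein RPL3 that is restricted to cardiac and skeletal muscle.

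The stretch around the annotated start was read for the members with an entry in the RefSeq promoter table (GRCm38.p6), 60 of the 81. A C followed by at least 4 pyrimidines, with the C within 5 bases of the start on the transcribed strand, was found in 28 of the 60 (46.7%), against 18.7% of 17491 protein-coding promoters. Over the promoter from 250 bases before to 50 after the start, with both strands searched, CCGGAAG, the letters of an ETS-family site, occurred in 38.3% of the members and 11.9% of all promoters. The letters AAGATGG, part of a YY1 site, occurred in 15% of the members and 6.37% of all promoters. For the core of the classical upstream promoter element, spelled TATAAA, the shares were 10% and 13.3%. The following stretches run from 40 bases before to 20 bases after the start, 5′ to 3′ on the strand of the gene, for 6 members that have the pyrimidine run and 2 that do not. The run is in capitals, and Rpl3l and Rpl7l1 were chosen as paralogs without it.
Rps6 (chr4:86857348-86857407, minus strand): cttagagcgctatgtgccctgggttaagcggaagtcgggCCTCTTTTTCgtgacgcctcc
Rps18 (chr17:33955646-33955705, minus strand): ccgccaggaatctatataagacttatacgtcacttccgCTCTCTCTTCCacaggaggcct
Rplp2 (chr7:141447611-141447670, plus strand): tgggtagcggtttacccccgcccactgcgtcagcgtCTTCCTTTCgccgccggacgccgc
Rps24 (chr14:24490638-24490697, plus strand): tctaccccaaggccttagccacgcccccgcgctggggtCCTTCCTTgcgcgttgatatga
Rps15a (chr7:118116128-118116187, minus strand): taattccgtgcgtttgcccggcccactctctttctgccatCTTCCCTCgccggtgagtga
Rpl22l1 (chr3:28805468-28805527, plus strand): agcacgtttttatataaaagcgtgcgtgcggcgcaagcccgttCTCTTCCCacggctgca
Rpl3l (chr17:24727786-24727845, plus strand): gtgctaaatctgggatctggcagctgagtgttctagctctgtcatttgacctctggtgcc
Rpl7l1 (chr17:46782637-46782696, minus strand): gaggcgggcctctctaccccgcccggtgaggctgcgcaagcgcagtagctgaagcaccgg
The run was longest in Rps18 (11 bases), Rps6 (10 bases) and Rplp2 (9 bases) of those shown. A match to letters is a description of the sequence and not of binding or of a measured transcript start.

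Together the 81 genes took 1.41 to 3.69% of the counts of a library. In Ctrl_RD the 4 shares were 1.75%, 1.82%, 1.82% and 2.31%, the last in Ctrl_RD_4. In Ctrl_HFD they were 2.20%, 1.98%, 1.76% and 2.16%. NaV1.5_RD held 1.94%, 1.90%, 1.85% and 3.21%, and NaV1.5_HFD held 2.02%, 2.49%, 2.36%, 2.17% and 1.86%. The shares of the 4 diet groups overlapped, and 1 library, NaV1.5_RD_4, lay above all other libraries of that experiment. In the second experiment the shares were 1.41%, 1.53%, 1.62%, 1.59% and 1.56% in vehicle, 1.53% and 1.75% in the NR libraries of batch 3, and 3.34%, 3.50%, 3.58%, 3.38% and 3.69% in the NR libraries of batch 2. The NR libraries of the 2 batches did not overlap, whereas the NR libraries of batch 3 lay within or next to the vehicle range.

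**Figure D1:**
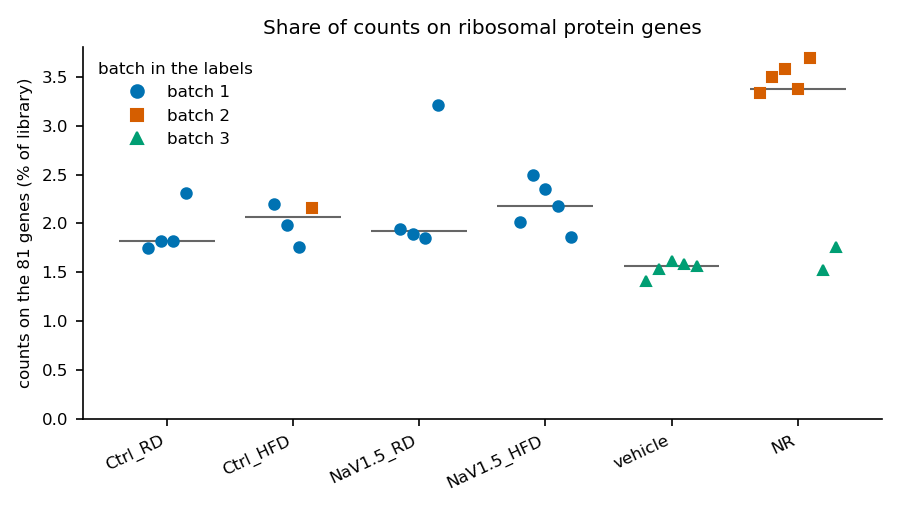
Percent of the counts of each library that fell on the 81 ribosomal protein genes (vertical axis, from 0), by group; each point is a library, its shape and colour give the batch in the labels, and the grey line is the group median. The batch 2 libraries of NR lie between 3.34 and 3.69%, and NaV1.5_RD_4, at 3.21%, is the highest of the diet experiment.

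Per length of exon, the genes differed widely in level. The length is that of all annotated exons of a gene and not of a single transcript. Rps24, with up to 39487 counts in a library, has 6256 such bases and ranked 56 of the 81 genes per length. Rplp1 has 499 bases and Rpl36 has 383, and both ranked near the top. The order and spread given here are thus not read as those of transcript levels. Levels are compared between genes only as TPM (counts per kilobase of exon, scaled to the same total in every library). The most abundant was Rplp1, an acidic protein of the P-stalk that recruits elongation factors, with a median of 2451 TPM over the 29 libraries and a range of 1758 to 4934. Rps15 followed at 1400 TPM, Rplp0, the anchor of the P-stalk, at 915, Rps29 at 851 and Rpl36 at 732. The ranges of Rps15 (784 to 2154 TPM) and Rplp0 (778 to 1279 TPM) overlapped. At the low end lay Rps10 with 7.37 TPM, Rpl3l with 19.5, Rpl13a with 20.8, Rps4l with 25.9 and Rpl24 with 26.2. In Ctrl_RD, 71 of the 81 were among the 1000 highest of 16168 tested genes per length, and 74 among the 2000 highest.

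Low levels are not read here as low transcript levels, since read pairs over more than 1 gene or mapping to several places were not counted. Of the 81 genes, 79 share at least 1 stretch of 50 bases with another annotated gene, and 36 share over 50% of such stretches. In Rpl24, 47.0% of exon bases also lie in exons of another gene, in Rpl13a 35.4% and in Rps10 28.7%. The overlap is larger in Rpl35 (66.2%, 183 TPM) and Rpl23a (62.3%, 294 TPM), which were not among the lowest. Rps4l, which was among them, has 0%. What part uncounted pairs have in the low levels was not tested. Rpl3l shares no stretch of 50 bases with any other gene and no exon base. Its counts are the least ambiguous of the set, while Rpl3 shares 85.6% of its stretches. The level of Rpl24 was 11.0 to 26.7 CPM (counts scaled to a common library total, not to length) in the diet libraries and 1.09 to 2.79 in the vehicle and NR libraries. Ctrl_HFD_4, labelled batch 2 like 5 of the NR libraries, had 17.6 CPM and lay with the diet libraries.

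The first comparison asks how transgenic and control atria differed on regular diet. None of the 81 genes passed the test (edgeR quasi-likelihood, adjusted p at or under 0.05 over 16168 genes), and 0.0124% of all tested genes did. Fitted differences of 80 of the 81 were above 0, with a median of 0.23 on the log2 scale against 0.01 over all genes. Only 1 of the 81 had an unadjusted p under 0.05 (6.11% of all genes did), and DESeq2 and limma-voom called 0. The 5 with the smallest p, none of which passed, were Rpl24 (0.39 ± 0.18, log2 difference ± SE), Rpl28 (0.22 ± 0.11), Rpl34 (0.45 ± 0.23), Rpl15 (0.23 ± 0.13) and Rps14 (0.36 ± 0.20), at adjusted p of 0.798 to 0.850 in edgeR. All 5 encode structural proteins of the ribosome. Without NaV1.5_RD_4 the median became -0.04 and 20 of the 81 differences were above 0, so the shared direction above 0 was not seen without that library. The count of calls was 0 without it as well (background 0.0304%).

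NaV1.5_RD_4 was higher for 80 of the 81 genes than the median of the other NaV1.5_RD libraries. Its median deviation was 0.91 on the log2 scale, with a range of -0.24 (Rps4l) to 1.14 (Rpl22l1), while the median over all tested genes was -0.01. Rps6, the small subunit protein phosphorylated downstream of mTOR, had 124, 109 and 111 CPM in the 3 other NaV1.5_RD libraries and 228 CPM in NaV1.5_RD_4. Rplp0 had 717, 726 and 716 CPM there and 1104 CPM in NaV1.5_RD_4. Rplp1, its partner in the stalk, had 519, 424 and 523 CPM there and 1033 CPM in NaV1.5_RD_4. The same library was less far from its group for Rps10 (0.11), Rpl7l1 (0.22), Rps2 (0.31) and Rpl28 (0.46). Both subunits deviated by about the same amount, 0.95 as the median of the 32 small and 0.86 of the 49 large subunit genes.

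Core genes outside the symbol rule followed in that library, with deviations of 0.97 for Rps3a1, 0.83 for Fau and 0.70 for Rack1. Of 21 other TOP mRNAs, among them elongation factor genes, 19 were above their group, with a median of 0.35. Of 46 translation factor genes 40 were above (median 0.20), of 77 mitochondrial ribosomal protein genes 63 (median 0.29) and of 87 ribosome biogenesis genes 51 (median 0.07). The bloc of cytosolic ribosomal protein genes thus had the largest median deviation of these 5 lists. NaV1.5_RD_4 also had the fewest counts of the diet experiment (15318744). Its red cell markers took 0.251% of counts against 0.0435 to 0.118% in the other NaV1.5_RD libraries, with 6 of 6 tested markers higher, and epicardial markers 0.0624% against 0.0277 to 0.0443%, 6 of 6 higher. Smooth muscle and pericyte markers took 0.0324% against 0.0404 to 0.0470%. Markers of all cardiomyocytes took 3.75% against 4.25 to 4.74%, atrial markers 5.46% against 4.69 to 5.11% and the skeletal muscle list 0.834% against 0.534 to 0.610%. Mb (55702 to 185676 counts per library) and Ckm (3691 to 23513) held most counts of the skeletal muscle list. Its myosin genes Myh1, Myh2 and Myh4 had at most 9 counts in any library, so the share is not read as skeletal muscle. Across all 15294 genes tested in both experiments the deviations of NaV1.5_RD_4 had a Spearman rho of -0.25 with exon length. With GC content it was -0.29 over the 15064 genes with a value. The part of these differences in the ribosomal protein result was not tested. In bulk tissue, a change in the mix of cells and a change of RNA per cell cannot be told apart.

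**Figure D2:**
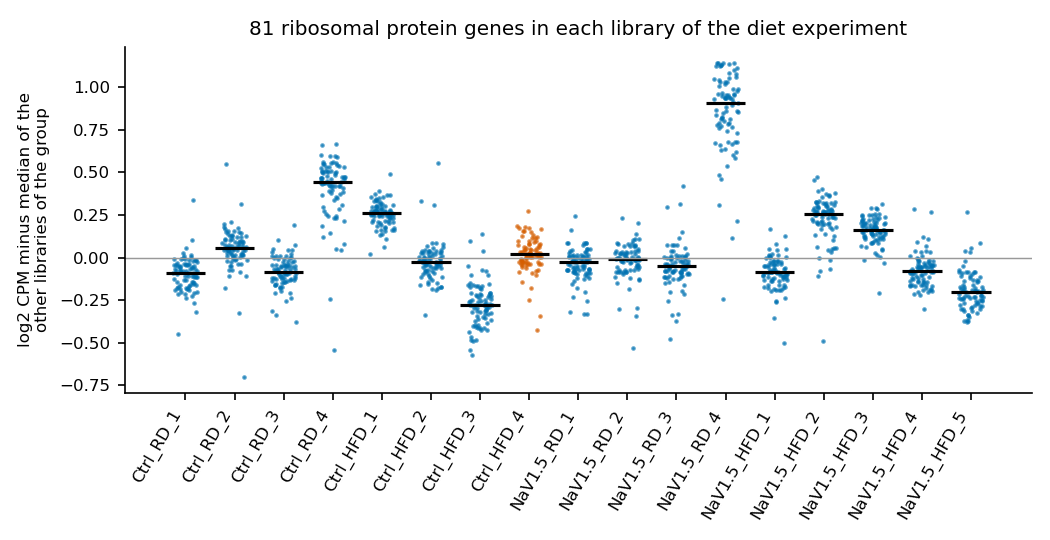
Deviation of each of the 81 ribosomal protein genes (points) in each library of the diet experiment from the median of the other libraries of its group, on the log2 CPM scale; black bars are medians over the genes, and orange marks the library labelled batch 2. The whole set shifts library by library, most in NaV1.5_RD_4 (median 0.91) and Ctrl_RD_4 (median 0.45).

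Shifts of the whole set were also seen in other libraries. Ctrl_RD_4 had 79 of the 81 genes above the median of its group, with a median deviation of 0.45 and the largest for Rps21 (0.66), while Rpl3l was lower by -0.54. Ctrl_HFD_1 had all 81 above (median 0.26), and Ctrl_HFD_3 had 3 above (median -0.28). NaV1.5_HFD_2 had 76 above (median 0.26) and NaV1.5_HFD_5 had 5 above (median -0.20). Medians over all genes in these libraries lay within -0.01 and 0.00. The spread of the set's median between libraries of a group was 0.286 (SD, log2) in the diet experiment, 0.179 without NaV1.5_RD_4, and 0.0629 within the batches of the second experiment.

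On high-fat diet, transgenic and control atria were compared in the same fit, where the batch term gives Ctrl_HFD replicate 4 no weight. None of the 81 genes passed in edgeR (background 0.0866%), 0 had an unadjusted p under 0.05 (8.05% of all genes did), and DESeq2 and limma-voom called 0. The median difference was 0.10 and 72 were above 0. The smallest p values belonged to Rps10 (-0.19 ± 0.11), Rps18 (0.32 ± 0.23), Rps27l (0.24 ± 0.18), Rpl37 (0.24 ± 0.21) and Rpl15 (0.15 ± 0.13), at adjusted p of 0.757 to 0.863 in edgeR. None of these passed. Rps18 had 207, 328, 309, 278 and 257 CPM in NaV1.5_HFD and 242, 256, 163 and 203 CPM in Ctrl_HFD, so the groups overlapped. Without Ctrl_HFD_3 the median was -0.02, and without Ctrl_HFD_1 it was 0.23.

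The diet was compared next within the transgenic mice. None of the 81 genes passed in edgeR (background 1.13%), 1 had an unadjusted p under 0.05 against 18.9% of all genes, and DESeq2 and limma-voom called 0. The median difference was -0.01, with 32 of the 81 above 0. The 5 with the smallest p were Rps4l (-0.39 ± 0.16), Rplp2 (-0.27 ± 0.13), Rpl7l1 (0.18 ± 0.09), Rps10 (-0.20 ± 0.11) and Rpl28 (-0.17 ± 0.10), with adjusted p of 0.207 to 0.364, none of them past the threshold. Rps4l had 19.2, 13.1, 21.8 and 16.2 CPM in NaV1.5_RD and 12.9, 10.3, 14.6, 14.98 and 14.6 CPM in NaV1.5_HFD, with overlap between the groups. Rplp2, the other acidic stalk protein, had 167, 189, 210 and 295 CPM on regular diet and 167, 174, 186, 206 and 157 CPM on high-fat diet, the highest value again being that of NaV1.5_RD_4.

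Without NaV1.5_RD_4 the diet comparison read differently. The median difference was 0.27, 76 of the 81 genes were above 0, and 44 had an unadjusted p under 0.05 (27.1% of all genes did). Rpl39 (0.45 ± 0.13, adjusted p = 0.0434) and Rps15a (0.42 ± 0.13, adjusted p = 0.0480) then rose with the diet in edgeR (both named after their values were seen), 2 of 81 against 3.27% of all genes called higher. In 45 of the 81 genes every NaV1.5_HFD library lay above the 3 remaining NaV1.5_RD libraries, against 9.17% of all genes. With NaV1.5_RD_4 kept, this held for 0 of the 81, against 2.65% of all genes. Rpl39, a small protein lining the exit tunnel of the large subunit, had 57.6, 66.3 and 57.1 CPM in those 3 libraries and 73.5, 91.9, 88.1, 80.8 and 77.2 CPM in NaV1.5_HFD. In NaV1.5_RD_4 it had 126 CPM, above every NaV1.5_HFD library. Rps15a had 176, 177 and 182 CPM in the 3 libraries, 387 CPM in NaV1.5_RD_4 and 215 to 270 CPM in NaV1.5_HFD. Cell type markers differed between the same libraries. Markers of all cardiomyocytes took 3.53 to 3.96% of counts in NaV1.5_HFD against 4.25 to 4.74% in the 3 NaV1.5_RD libraries, and atrial markers 4.07 to 4.37% against 4.69 to 5.11%, without overlap. Red cell markers took 0.0825 to 0.294% against 0.0435 to 0.118%, with overlap. The part of these shifts in the diet result was not tested. Leaving out Ctrl_RD_4 as well, 17 of the 81 rose in the transgenic mice, against 4.45% of all genes called higher. Ctrl_RD_4 is in neither group compared, so leaving it out acts only through the fit shared by all groups, such as its estimate of spread. Both libraries were left out after they were seen to stand apart on these same genes, which narrows that spread. NaV1.5_RD_4 had the highest share of its group, so leaving it out also lowers the level on regular diet. The 2, 44, 45 and 17 genes counted without it thus add no support for a diet effect.

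In control mice the diet gave 0 calls among the 81 in edgeR (background 0%), 0 at an unadjusted p under 0.05 against 8.49% of all genes, and 0 in DESeq2 and limma-voom. The median difference was 0.11 and 76 were above 0, but without Ctrl_HFD_1 the median was -0.03. Rps10 (0.18 ± 0.12), Rpl7l1 (0.13 ± 0.11), Rps4l (-0.22 ± 0.18), Rpl10 (0.20 ± 0.17) and Rpl15 (0.15 ± 0.14) had the smallest p, all at adjusted p of 0.682 or more, and none passed. The difference between the diet effects of the 2 genotypes (interaction) was not past the threshold for any of the 81 (background 0%), with 1 at an unadjusted p under 0.05 (2.26% of all genes) and 0 calls by DESeq2 and limma-voom. That one was Rps10, a small subunit protein near the mRNA entry, with -0.37 ± 0.16 and an adjusted p of 1.00. The other 4 of smallest p, Rplp2 (-0.23), Rpl28 (-0.17), Rps9 (-0.20) and Rpl8 (-0.17), did not pass either. The interaction median was -0.13 with all libraries and 0.14 without NaV1.5_RD_4.

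**Figure D3:**
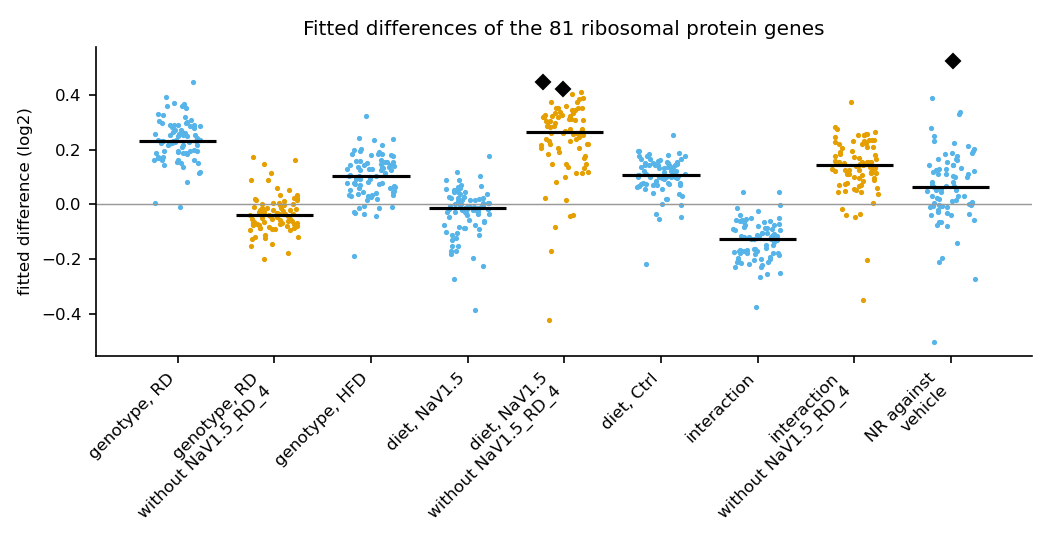
Fitted log2 differences (edgeR) of the 81 ribosomal protein genes in each comparison, with all libraries (blue) and without NaV1.5_RD_4 (orange); each point is a gene, black bars are medians and black diamonds are genes with an adjusted p at or under 0.05. The median of the genotype comparison on regular diet moves from 0.23 to -0.04 and that of the diet in NaV1.5 mice from -0.01 to 0.27 when the library is left out.

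Other genes of protein synthesis passed in the diet comparison of the transgenic mice, where 1.13% of all genes passed. On high-fat diet Abce1, which splits ribosomes after termination, was the only one of 46 translation factor genes to pass, and it rose by 0.38 ± 0.08 (adjusted p = 0.0317, edgeR). Of 87 ribosome biogenesis genes 1 rose, the helicase gene Ddx21 (0.40 ± 0.08, adjusted p = 0.0225), and 1 fell, Noc4l, a factor of small subunit assembly (-0.52 ± 0.12, adjusted p = 0.0366). No gene of these lists passed in the other 5 comparisons, and none of the 21 other TOP mRNAs, the 77 tested mitochondrial ribosomal protein genes and the mTOR and TOP regulators (27 tested with the diet groups, 28 with NR) passed in any. Over the 15890 tested genes with a GC value, fitted diet differences had a Spearman rho with GC content of -0.46 in NaV1.5 and -0.40 in Ctrl. With offsets for GC content and length these were -0.03 and -0.02. The part of GC content in the calls of Abce1, Ddx21 and Noc4l was not tested.

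The last comparison asks what nicotinamide riboside did in transgenic mice on high-fat diet. With batch in the model it rests on NR replicates 6 and 7 against the 5 vehicle libraries. In edgeR 1 of the 81 genes passed, Rpl23a, which rose by 0.52 ± 0.07 (adjusted p = 0.00693), against 0.425% of all tested genes. Rpl23a encodes a large subunit protein at the mouth of the exit tunnel, where factors that act on the nascent chain bind. Its gene lies at chr11:78180932-78183584 (GRCm38, minus strand). It had 169, 191, 190, 190 and 180 CPM in vehicle and 252 and 277 CPM in the NR libraries of batch 3. The NR libraries of batch 2 had 313, 342, 335, 303 and 323 CPM, so that all 7 NR libraries lay above all 5 vehicle libraries. The batch 2 libraries lay above all vehicle libraries in 75 of the 81 genes, against 23.0% of all genes. Their place is thus not particular to Rpl23a, and batch and treatment cannot be told apart in them.

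Rpl23a is among the more ambiguous genes: 62.3% of its exon bases lie in exons of Tlcd1 or Snord42b, and 85.7% of its 50-base stretches occur in other genes. Tlcd1, which overlaps it, did not pass in edgeR (0.03 ± 0.12, adjusted p = 0.959). Without NR replicate 7 the value was 0.47 and did not pass (adjusted p = 0.288, edgeR). NR replicate 6 is then the only NR library set against vehicle and is assumed to vary like the others. The call was present with the batch 3 libraries alone (0.53, adjusted p = 0.0444, background 0.109%). The next genes by p were Rps24 (0.34 ± 0.08, adjusted p = 0.0955), Rps26 (0.33 ± 0.09), Rps29 (0.25 ± 0.09) and Rpl23 (0.19 ± 0.07), none of which passed in edgeR. Rps24 had 468, 510, 504, 481 and 501 CPM in vehicle and 609 and 638 CPM in NR of batch 3, with no overlap. DESeq2 called 3 of the 81, with Rps24 and Rps26 added, and 1.54% of all genes. The median difference of the set was 0.06 with 57 of 81 above 0, and 12 had an unadjusted p under 0.05, 9 of them higher, against 11.1% of all genes. Both NR libraries of batch 3 lay above all vehicle libraries in 16 of the 81 genes, against 5.93% of all genes, and below them in 4 (Rpl22l1, Rpl38, Rps10 and Rps14), against 8.25%.

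Without the batch term 74 of the 81 genes passed, all higher, against 15.1% of all genes called higher, with a median of 0.78. With only the batch 2 libraries of NR set against vehicle, 77 passed higher against 30% of all genes, with a median of 0.99. In that contrast batch and treatment cannot be told apart. Within the NR group the libraries of batch 2 were tested against those of batch 3, a comparison in which diet, genotype and treatment are the same. There 76 of the 81 rose and 0 fell, against 24.7% of all genes called higher and 25% called lower, with a median of 0.91. The largest were Rpl39 (1.95 ± 0.12), Rpl22l1 (1.78 ± 0.09), Rps12 (1.64 ± 0.09) and Rps27l (1.61 ± 0.09), at adjusted p of 4.8e-09 or less in edgeR.

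Rpl22l1, a paralog of Rpl22, had 111, 106, 111, 108 and 128 CPM in NR of batch 2 and 32.4 and 33.3 CPM in NR of batch 3. Rpl3l was the only gene of the 81 below 0 (-0.46 ± 0.19, adjusted p = 0.0627), and Rpl7l1 was near 0 (0.10 ± 0.08, adjusted p = 0.323), neither past the threshold. In the batch 2 libraries red cell markers took 0.272 to 0.616% of counts and epicardial markers 0.152 to 0.218%, against 0.137 to 0.195% and 0.0284 to 0.0626% in the NR libraries of batch 3. Markers of all cardiomyocytes took 1.77 to 2.04% against 4.93 and 5.37%, and atrial markers 2.25 to 2.71% against 2.93 and 3.35%. Endothelial markers took 0.207 to 0.254% against 0.131 and 0.139%, and lymphocyte markers 0.00177 to 0.00468% against 0.000972 and 0.00129%. None of these ranges overlapped. What part these have in the difference was not tested.

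Across the 81 genes, the size of the shift in NaV1.5_RD_4 went with the size of the shift between the NR batches (Pearson r = 0.73, Spearman rho = 0.80, n = 81 genes, given as a description). The 2 contrasts share no library, but the genes share length, base composition and level. Over all 15294 genes tested in both experiments the same relation had a rho of 0.44. Among the members the shifts in NaV1.5_RD_4 and between the NR batches had, in that order, r = -0.049 and 0.047 (rho = -0.13 and 0.06) with exon length. With level they had r = 0.37 and 0.13 (rho = -0.0080 and -0.072), and with GC content r = -0.25 and -0.29 (rho = -0.15 and -0.29). Members with the pyrimidine run at the start had a median shift of 0.90 in NaV1.5_RD_4 and 0.89 between the NR batches, and those without it 0.89 and 0.94. No difference between those groups of genes is seen in these medians.

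**Figure D4:**
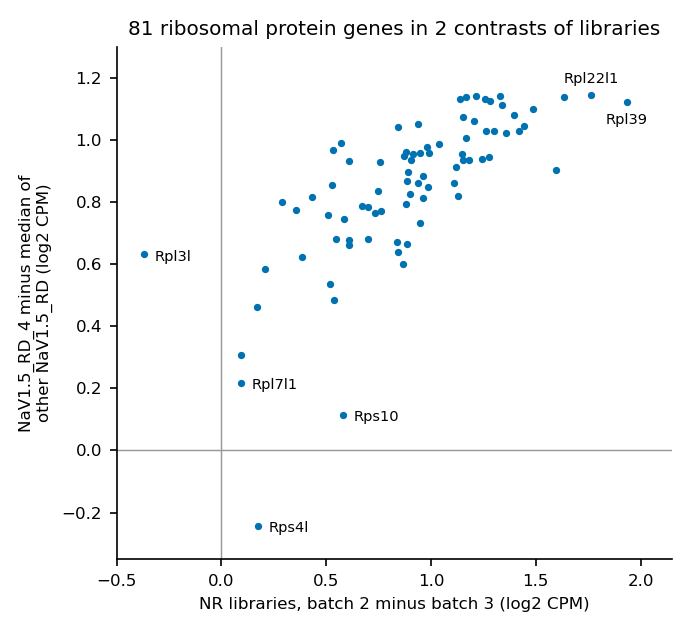
Each point is one of the 81 ribosomal protein genes: the horizontal axis gives the mean log2 CPM of the NR libraries of batch 2 minus that of batch 3, the vertical axis the deviation of NaV1.5_RD_4 from the median of the other NaV1.5_RD libraries. The genes rise together (rho = 0.80); Rpl3l lies left of 0 and Rps4l below 0.

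The muscle paralog Rpl3l was set against Rpl3 within each library, as the ratio of counts per kilobase, which needs no scaling between libraries. The lengths are of all annotated exons, 1643 bases for Rpl3l and 3175 for Rpl3. As plain counts the mean log2 ratio in Ctrl_RD was -4.22, against -3.27 per kilobase. Rpl3 also shares 85.6% of its stretches with other genes, while Rpl3l shares none. The percentages are thus not read as relative amounts of both mRNAs. Differences between groups do not depend on the lengths. Ctrl_RD had 12.9%, 13.9%, 9.95% and 6.39% of Rpl3, and the 3 batch 1 libraries of Ctrl_HFD had 9.70%, 12.6% and 9.77%. NaV1.5_RD had 9.07%, 9.44%, 12.4% and 8.72%, and NaV1.5_HFD had 10.3%, 8.72%, 11.3%, 10.5% and 13.8%. The 4 groups overlapped, with differences in the log2 ratio of -0.08 between genotypes on RD and 0.02 between genotypes on HFD, and of 0.14 between diets in NaV1.5 and 0.04 in Ctrl. Exact permutation tests gave adjusted p of 0.943 for each of these (2-sided, 5 comparisons). Without Ctrl_RD_4, which had the lowest ratio of its group, the difference was -0.31 between genotypes on RD and -0.20 between diets in Ctrl. With so few libraries per group, most of the 5 tests could not on their own pass after adjustment, whatever the ratios. They therefore do not show that the ratio was unchanged.

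In vehicle the ratio was 7.28%, 5.68%, 5.89%, 5.19% and 5.37%, and in the NR libraries of batch 3 it was 5.44% and 10.8%, a difference of 0.39 (exact permutation p = 0.190, adjusted p = 0.943) that became -0.10 without NR replicate 7. The NR libraries of batch 2 had 3.44%, 3.67%, 3.39%, 3.66% and 4.42%, below all others. There Rpl3 had 539 to 623 CPM, against 370 and 371 CPM in NR of batch 3, and Rpl3l 10.2 to 13.4 CPM against 10.4 and 20.7 CPM. The lower ratio in batch 2 thus went with higher Rpl3, while the Rpl3l values of the batches overlapped in range. Fitted differences of Rpl3l passed in none of the 6 comparisons between groups, the largest of these being 0.39 ± 0.19 with NR (adjusted p = 0.496, edgeR).

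**Figure D5:**
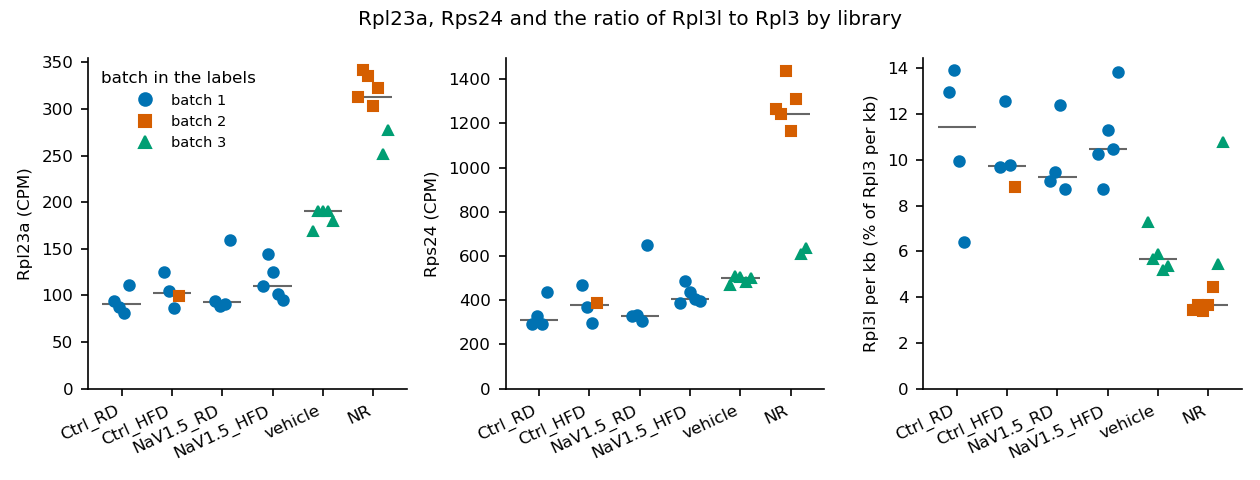
Rpl23a and Rps24 (CPM, TMM-scaled within each experiment) and the ratio of Rpl3l to Rpl3 per kilobase (percent) by group; each point is a library, shape and colour give the batch in the labels, and grey lines are group medians. All 7 NR libraries lie above the vehicle libraries for Rpl23a and for Rps24, while the ratio of NR batch 2 (3.39 to 4.42%) lies below that of every other library.

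The other paralogs were low beside their partners per length of annotated exon, and moved in different ways. Rpl7l1, a nucleolar relative of Rpl7, had a median of 28.4 TPM against 365 for Rpl7, and lay between 37.8 and 55.4 CPM in all libraries of the diet experiment. Rpl22l1 had 39.4 TPM against 126 for Rpl22, and 22.8 to 43.4 CPM in the diet libraries other than NaV1.5_RD_4, which had 68.5 CPM. Rps27l had 148 TPM against 664 for Rps27. None of the 3 passed in any of the 6 comparisons between groups. Of the extra-ribosomal actors of the set, Rpl5 and Rpl11, which bind Mdm2 when ribosome assembly fails, had medians of 102 and 160 TPM, and Rps27a, made as a fusion with ubiquitin, had 225 TPM. Rpsa, also known as a laminin receptor, had 359 TPM, and Rps4x, the X-linked form of a small subunit protein, 655 TPM. Their values in NaV1.5_RD_4 were the highest of the diet experiment for Rpl5 (288 CPM), Rpl11 (353 CPM), Rps27a (380 CPM) and Rpsa (801 CPM).

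The balance of the subunits was also measured per library, as counts on the large over counts on the small subunit genes. It was 1.29 in each of the 4 Ctrl_RD libraries, 1.27 to 1.29 in Ctrl_HFD, 1.24 to 1.29 in NaV1.5_HFD and 1.26 to 1.31 in NaV1.5_RD without replicate 4, which had 1.20. In vehicle it was 1.36 to 1.40, in NR of batch 3 1.39 and 1.35, and in NR of batch 2 1.22 to 1.26. The library with the highest share of ribosomal protein counts in the diet experiment, NaV1.5_RD_4, and the batch 2 libraries of NR had the lowest ratios within their experiments, whereas Ctrl_RD_4, whose share was also high for its group, did not differ from its group. Rows named as ribosomal protein pseudogenes held 1.298 to 1.90% as many counts as the 81 genes in the diet libraries, Ctrl_HFD_4 included (1.65%), and 0.318 to 0.581% in the vehicle and NR libraries of both batches.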

How the data were processed

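Polyadenylated RNA of 29 atrial libraries was made into stranded libraries, per the labels' protocols. The deposited tables hold unnormalized counts, 1 per gene name and library, which the authors made from read pairs with featureCounts 2.0.1 on GRCm38 with the GENCODE annotation, per the file headers; STAR 2.7.6a and FastQC 0.11.7 are named in the submitters' processing notes. Strand was not used, and pairs that mapped to several places or overlapped several genes were not counted, per the file headers. Reads from a gene and its antisense partner therefore cannot be told apart.

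From the deposited counts, CPM (scaled by TMM within each experiment) and TPM were computed here. Differences were fitted with edgeR 4.0.16 (quasi-likelihood, filterByExpr, robust) with group and batch, separately for the 17 diet and the 12 vehicle and NR libraries, and p-values were adjusted (Benjamini-Hochberg) over all tested genes, with a threshold of 0.05. All 81 genes passed the filters. SE is the log2 difference over the square root of F. DESeq2 1.42.0 and limma 3.58.1 (voom, quality weights) were alternatives, beside other filters, scalings, offsets for length and GC content, batch terms and left-out libraries. The deviation of a library is its log2(CPM + 0.5) minus the median of the other libraries of its group, for NR within its batch. The fits were tested on simulated counts. A check of the genotype labels by the targeted gene is not reported here. Totals of 13189995 to 33061018 counts set the counting error.

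The genes and lists were chosen with earlier results of these data known. Named in each comparison are the genes past the threshold or, with fewer than 5, the 5 of smallest p, together with the paralogs and their partners, the P-stalk genes, Rpsa, Rps6, Rpl5, Rpl11, Rps27a, Rps4x and the 5 highest and 5 lowest per length. Same-numbered libraries of the diet groups did not deviate together (median correlation -0.03 over 18 pairs), so the numbers were not taken as pairs. Stretches shared between genes and GC content came from GENCODE vM21 transcripts, an older release than the counting annotation.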

Additional observations from a re-analysis of the deposited data

Results flagged for a closer look

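Each of 21 measures was examined in each of the 6 groups for a library far from the others, by the ratio of its gap to the range of the group. Of the 126 examinations 19 stood out, 13 of them in NaV1.5_RD_4. Among the measures, Rpl39 and Rps15a were taken after their values without that library were seen. The number that stood out is thus not set against a chance rate. The measures are not independent, since the genes move together.

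In NaV1.5_RD_4 the share of counts on the 81 genes was 3.21% (others 1.85 to 1.94%). Of the stalk genes, Rplp0 had 1104 CPM (others 716 to 726) and Rplp1 1033 CPM (others 424 to 523). Rpsa had 801 CPM (others 440 to 466.3), Rps6 had 228 CPM (others 109 to 124) and Rps27a had 380 CPM (others 171 to 190). The Mdm2-binding pair stood apart in the same way, with 288 CPM for Rpl5 (others 154 to 167) and 353 CPM for Rpl11 (others 177 to 185). Rpl3 had 516 CPM (others 290 to 317), Rpl23a 159 CPM (others 88.6 to 94.5), Rps24 650 CPM (others 308 to 334), Rpl39 126 CPM (others 57.1 to 66.3) and Rps15a 387 CPM (others 176 to 182).

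Ctrl_RD_4 stood apart for the share, 2.31% (others 1.75 to 1.82%), for Rplp1 with 700.1 CPM (others 469 to 491) and for Rps6 with 160 CPM (others 117 to 123). Vehicle replicate 1 was low for Rpl39, with 56.7 CPM (others 63.6 to 66.2). NR replicate 7 was high for Rpl3l, with 20.7 CPM (others 10.2 to 13.4), and for the ratio of Rpl3l to Rpl3, 10.8% (others 3.39 to 5.44%). The NR group holds libraries of both batches.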

How the results depend on the processing

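Calls among the 81 genes on the diet comparisons numbered 0 under every alternative except for the diet in NaV1.5 mice, where edgeR called 2 without NaV1.5_RD_4, 17 without both NaV1.5_RD_4 and Ctrl_RD_4 (chosen after seeing the data), and 3 with the numbered libraries alone. Leaving out 1 library at a time gave 0 to 2 calls there. Medians over the 81 genes then ranged from -0.04 to 0.34 for genotype on regular diet, -0.02 to 0.23 for genotype on high-fat diet, -0.09 to 0.27 for the diet in NaV1.5 mice, -0.03 to 0.23 for the diet in control mice and -0.25 to 0.14 for the interaction. With limma-voom and quality weights the medians were 0.09 for genotype on regular diet, 0.22 for the diet in NaV1.5 mice and 0.04 for the interaction.

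The numbered libraries leave out NaV1.5_RD_4 and Ctrl_RD_1, which carry no number. With these libraries and no replicate block, the median was -0.091 for genotype on regular diet and 0.19 for the interaction. With the replicate block it was -0.063 and 0.20, and 0.28 for the diet in NaV1.5 mice with 0 calls. Of 14 libraries 6 correlated best with their own number. Under the block the interaction of Rpl28 became 0.048 and that of Rps9 0.017. Without 1 library the interaction of Rps9 ranged from -0.27 to 0.0066 (without NaV1.5_RD_4). No paired analysis was possible for NR because the numbers do not pair NR with vehicle within a batch.

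For NR, 1 call became 3 with DESeq2, 2 with no filter on low counts, 74 with no batch term (median 0.78) and 77 with only batch 2 NR libraries (median 0.99). Without 1 library there were 0 to 2 calls and medians of 0.013 to 0.13, the 0 being without NR replicate 7 and the 2 and 0.13 without NR replicate 6, each with 1 NR library left against vehicle, assumed to vary like the others. The log2 ratio of Rpl3l to Rpl3 changed sign under the replicate block for genotype on high-fat diet (-0.080), the diet in NaV1.5 mice (-0.025) and the diet in control mice (-0.086). With all batches it was -0.031 for the diet in control mice and -0.36 for NR. Without 1 library the ratio ranged from -0.31 to 0.067 for genotype on regular diet, -0.065 to 0.15 for genotype on high-fat diet, -0.20 to 0.18 for the diet in control mice and -0.10 to 0.88 for NR. The cause of these changes was not tested, beyond the smaller number of libraries. Depth limits Rps10 and Rpl24 most, with as few as 31 and 22 counts in a library.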
